A study of Mus musculus with 18 samples.

Results

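The 9 genes described here encode the ligands and receptors of 2 signalling pairs that act on macrophages, together with 4 genes widely used to mark macrophages, and they were taken by symbol from the 15730 genes of the count table. The ligands Csf1 and Il34 share the receptor Csf1r, Cx3cl1 (fractalkine) is the ligand of Cx3cr1, and Aif1, Cd68, Mrc1 and Cd163 are the marker genes. All 9 were in the table and all 9 were tested, so none was lost to a filter on low counts. RNA was sequenced from sciatic dorsal root ganglia (DRG), which hold the cell bodies of the sensory neurons, in 18 samples taken 24 hours after surgery and divided into 6 groups of 3.

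All animals were C57BL/6 mice aged 6 to 8 weeks, and each sample pooled the ganglia of 2 mice. SNA_Saline had a sciatic nerve injury with saline, and Sham_Saline had the sham procedure with saline. SNA_NAC had the sciatic nerve injury with 30 mM N-acetyl-cysteine, a thiol antioxidant. Sham_H202, spelled as in the labels, had the sham procedure with 13 mM hydrogen peroxide. DCA had an injury of the dorsal columns of the spinal cord, the tract that holds the central branches of the same sensory neurons, and LAM had a laminectomy, the removal of bone over the cord. The labels name no unoperated group, so every sample came from an operated mouse.

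Csf1 and interleukin-34 bind the same receptor tyrosine kinase, Csf1r, which keeps monocytes, macrophages and microglia alive and lets them divide. Fractalkine is made as a membrane-anchored chemokine, is shed by the proteases Adam10 and Adam17, and is read by Cx3cr1 on monocytes, macrophages and microglia. In the DRG, macrophages lie beside the neuronal cell bodies, and sensory neurons are known to make Csf1 after their peripheral axon is cut.

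Csf1 and Mrc1 were the members whose levels passed the test in at least 1 comparison, and their promoters are printed here as the sequence context of those results. Each line holds the 250 bases before the annotated start in RefSeq (GRCm38.p6), written 5′ to 3′ on the gene's strand, with capitals marking a motif match. The Csf1 promoter spans chr3:107760470-107760719 on the minus strand and the Mrc1 promoter spans chr2:14229164-14229413 on the plus strand.
Csf1: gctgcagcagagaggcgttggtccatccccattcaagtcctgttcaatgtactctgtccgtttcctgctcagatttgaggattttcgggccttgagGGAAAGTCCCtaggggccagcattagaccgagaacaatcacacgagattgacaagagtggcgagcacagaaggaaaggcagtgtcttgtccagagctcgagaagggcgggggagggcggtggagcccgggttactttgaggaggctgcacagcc
Mrc1: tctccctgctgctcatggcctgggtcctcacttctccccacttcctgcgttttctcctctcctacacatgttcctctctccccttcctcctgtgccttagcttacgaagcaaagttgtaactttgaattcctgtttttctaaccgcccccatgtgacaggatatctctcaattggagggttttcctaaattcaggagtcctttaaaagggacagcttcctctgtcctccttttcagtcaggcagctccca

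The letters of 4 motifs were searched on both strands, namely TGANTCA for AP-1, TGACGTCA for CRE, GAGGAAGT for the core of PU.1, a transcription factor of myeloid cells, and the NF-kB site whose reverse complement is in capitals in the Csf1 promoter. That match lies on the opposite strand, 154 to 145 bases before the start. Of 27025 mouse promoters of the same length, 35 (0.13%) held these letters. The Mrc1 promoter held none of the searched motifs, nor did those of Cx3cl1, Cx3cr1, Aif1 and Cd163. The Cd68 promoter held 2 AP-1 matches, at 149 to 143 and 24 to 18 bases before the start, and 6.87% of promoters held at least 1. CRE was found in 1.62% and the PU.1 core in 2.44% of promoters. A match describes the letters in this window and is not evidence that a factor binds there.

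In GRCm38 coordinates, Csf1 (ENSMUSG00000014599) lies at chr3:107741048-107760469 on the minus strand and no annotated gene overlaps it. Il34 (ENSMUSG00000031750) lies at chr8:110741829-110805924 on the minus strand, and 3979 of its bases overlap the antisense gene Gm15894, which is also in the count table. Cx3cr1 (ENSMUSG00000052336) is annotated at chr9:119901616-120069879 on the minus strand, a span that also holds Wdr48, Gorasp1 and Csrnp1, and 873 bases of Csf1r overlap Hmgxb3 on the opposite strand. Whether strand was used in counting is not given in the sources used here. Reads of Il34, Csf1r and Cx3cr1 may therefore not be fully told apart from those of neighbours on the opposite strand. Gorasp1 and Csrnp1 lie on the same strand as Cx3cr1, where counting by strand would not separate them. These overlaps are of whole gene spans in GENCODE M21, which need not be the annotation that was counted.

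Total counts per sample ran from 6472476 to 42435331. Levels are given as CPM, the counts scaled to library size with TMM factors, unless FPKM, which also divides by gene length, is named. Per length, Il34 had the highest mean over the 18 samples (9.65 FPKM), followed by Csf1 (6.17 FPKM), Csf1r (4.31 FPKM) and Mrc1 (2.97 FPKM). Cx3cl1 had the lowest mean, 0.945 FPKM, and Cd163 the next, 1.03 FPKM. The lowest count of any member in any sample was 11, for Cd68, so the values of Cd68, Cx3cl1, Cd163, Aif1 and Cx3cr1 in the shallow libraries rest on few reads. The ganglion itself was recognisable in all 18 samples: the summed level of 12 sensory neuron markers ran from 7071 to 11676 CPM. The Sham_Saline group stood apart in spread. Its summed level of 12 skeletal muscle markers was 1884 CPM in replicate 2 against 242 and 142 CPM in replicates 1 and 3. Replicate 2 also had the steepest relation of level to GC share (0.43 log2 CPM per SD of GC share). Replicate 1 was low in 10 Schwann markers (6792 CPM against 10779 and 10976) and 7 red blood cell markers (261 CPM against 788 and 853). In 9 satellite glia markers it was near replicate 2 (2779 and 2801 CPM, with 3175 in replicate 3). Chi-square per degree of freedom between replicates was 112 for 1 and 2, 51.0 for 1 and 3, and 34.3 for 2 and 3. These are whole ganglia, in which fewer cells of a type and less RNA per cell cannot be told apart.

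**Figure D1:**
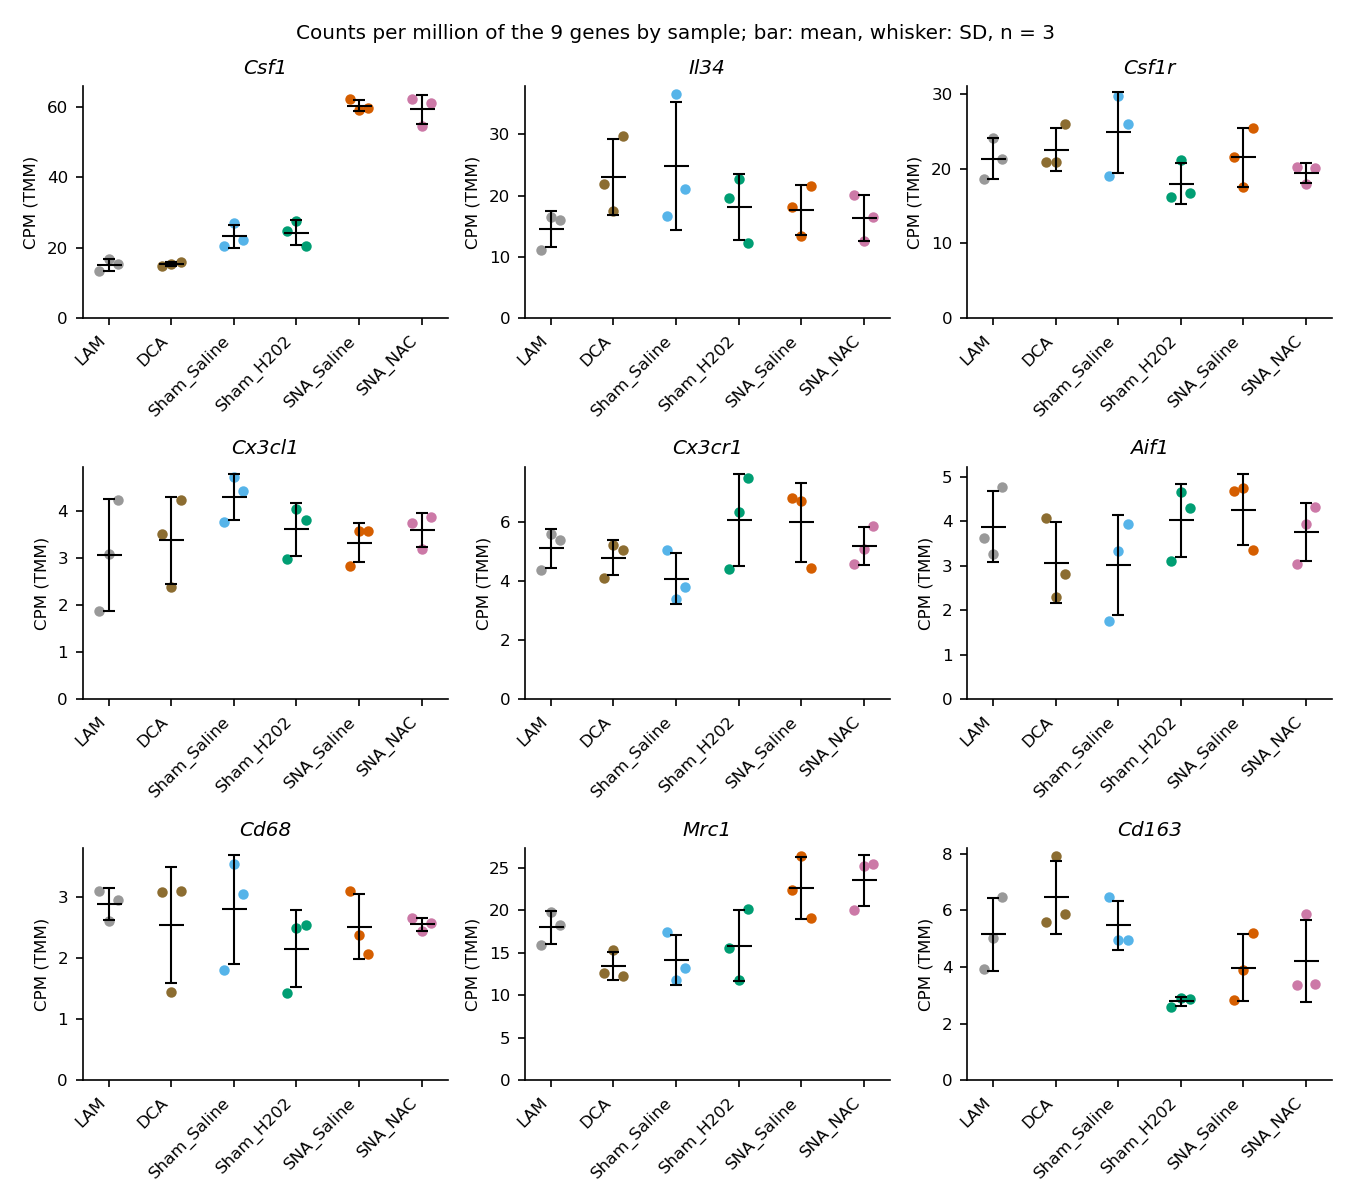
Level of each of the 9 genes in every sample, in CPM on a linear axis from 0, by group; each point is a pool of 2 mice, bars are group means and whiskers are SD (n = 3). Csf1 is the gene whose SNA_Saline and SNA_NAC samples (54.7 to 62.3 CPM) lie apart from all 12 other samples (13.4 to 27.7 CPM).

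Csf1 was the member that rose most clearly after sciatic nerve injury, to 2.59 times its level in the sham group. It stood at 62.2, 59.1 and 59.8 CPM in the 3 SNA_Saline samples and at 20.6, 26.9 and 22.3 CPM in the 3 Sham_Saline samples. Every injured sample was above every sham sample, with a gap wider than the spread inside either group. The group means were 60.4 ± 1.59 CPM in SNA_Saline and 23.3 ± 3.25 CPM in Sham_Saline (SD, n = 3 each). The fitted log2 fold change was 1.37 with a standard error of 0.13 (95% interval 1.10 to 1.64), and edgeR's quasi-likelihood test gave a Benjamini-Hochberg adjusted p of 9.1e-06 over all genes. By p, Csf1 ranked 12 of the 15730 genes. It was 1 of the 9 members called in this comparison, in which 2.73% of all genes were called, 2.16% higher and 0.572% lower. The replicate number gives the sequencing lane, and within lanes 1, 2 and 3 the Csf1 difference was 1.59, 1.13 and 1.42 on the log2 scale. Without Sham_Saline replicate 2, the library with the high muscle sum, it was 1.49 (edgeR adjusted p = 1.03e-05).

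No effect of N-acetyl-cysteine on Csf1 was detected after the injury. The SNA_NAC samples stood at 62.3, 54.7 and 61.0 CPM, a mean of 59.4 ± 4.10 CPM (SD, n = 3). They overlapped the SNA_Saline samples. The log2 difference from SNA_Saline was -0.02, with a 95% interval from -0.28 to 0.24. Against Sham_Saline, the control shared with the previous comparison, Csf1 was called higher in SNA_NAC with a log2 fold change of 1.35 (standard error 0.13, edgeR adjusted p = 1.0e-05).

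Injury of the dorsal columns left Csf1 near its level after laminectomy. The 3 DCA samples held 14.9, 15.3 and 15.9 CPM and the 3 LAM samples held 13.4, 16.8 and 15.3 CPM. The groups overlapped fully, and the log2 difference was 0.01 with a 95% interval from -0.26 to 0.29. The response of Csf1 to the sciatic injury exceeded its response to the dorsal column injury by 1.36 on the log2 scale (standard error 0.18, edgeR adjusted p = 0.00101). Csf1 was the single member called in this test of the difference, in which 1.61% of all genes were called (1.23% higher and 0.388% lower). The call held in all 24 alternative fits, with differences from 1.14 to 1.80.

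The sham procedure with hydrogen peroxide gave 24.7, 27.7 and 20.5 CPM of Csf1. These values overlapped the saline sham, with a log2 difference of 0.07 and a 95% interval from -0.20 to 0.34. The 2 surgical controls were further apart. All 3 Sham_Saline samples were above all 3 LAM samples, with a log2 difference of 0.62 (standard error 0.13) that did not pass the test (edgeR adjusted p = 0.104). With the DESeq2 Wald test its adjusted p was 0.00592, without Sham_Saline replicate 1 edgeR's was 0.0236, and with offsets for GC share and length the difference was 0.27. In the order of group means, LAM and DCA overlapped, Sham_Saline and Sham_H202 overlapped above them, and SNA_NAC and SNA_Saline overlapped at the top, with no overlap between these 3 steps.

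**Figure D2:**
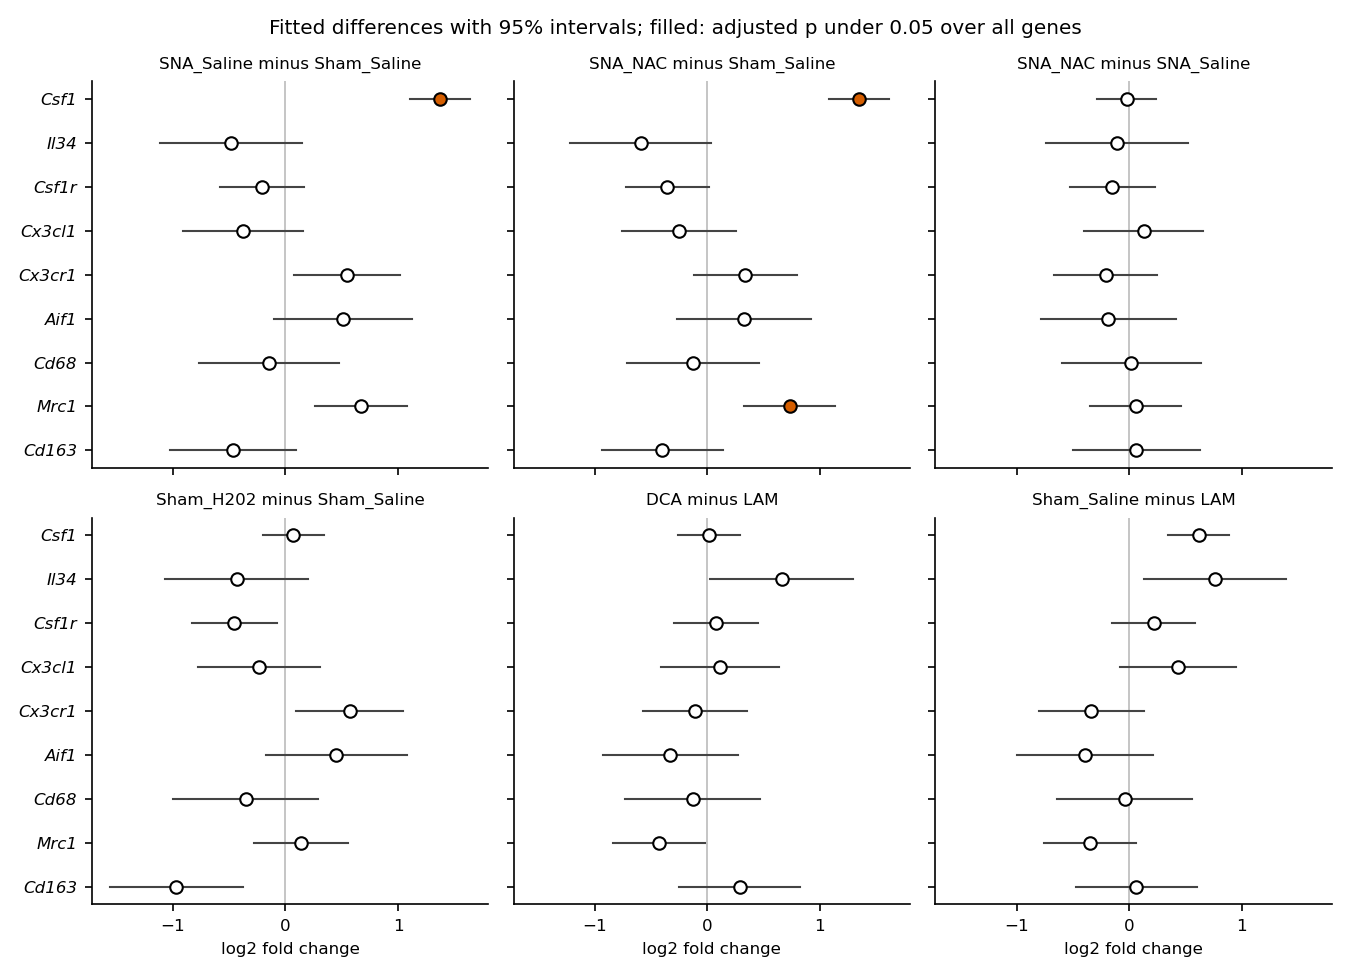
Fitted log2 fold change of each of the 9 genes (x axis) in the comparisons named above the panels; horizontal lines are 95% intervals and filled points passed an adjusted p of 0.05 over all 15730 genes. Csf1 lies at 1.37 and 1.35 in both comparisons of the sciatic injury with the saline sham, and its interval spans 0 for DCA against LAM and for SNA_NAC against SNA_Saline.

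Il34, the other ligand of Csf1r, did not pass the main test in any comparison. Its 3 Sham_Saline samples held 16.7, 36.6 and 21.04 CPM and its 3 SNA_Saline samples held 18.1, 13.4 and 21.5 CPM. The groups overlapped, and the log2 difference was -0.48 with a 95% interval from -1.12 to 0.15. Within lanes 1 and 3 the difference was 0.11 and 0.03, and in lane 2, which holds the highest sham sample, it was -1.44. Without that sham sample, replicate 2, the fitted difference of Il34 was -0.085. The 3 DCA samples (21.9, 17.4 and 29.7 CPM) were all above the 3 LAM samples (11.1, 16.5 and 16.0 CPM), by 0.66 on the log2 scale (edgeR adjusted p = 0.624). Sham_Saline was also above LAM in every sample, by 0.76 (edgeR adjusted p = 0.118). The difference between the responses of Il34 to the sciatic and the dorsal column injury was -1.14 (standard error 0.42, unadjusted p = 0.0153, edgeR adjusted p = 0.1001). Without Sham_Saline replicate 1, Il34 passed in Sham_Saline against LAM (0.0283), in SNA_NAC against Sham_Saline (0.0424, at -0.81) and in the difference between the injuries (0.0278, at -1.36).

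The 2 samples with the most Il34, Sham_Saline replicate 2 and DCA replicate 3, were also the 2 with the steepest relation of level to GC share, 0.43 and 0.25 log2 CPM per SD of GC share. The longest transcript of Il34 has a GC share of 56.96%. With offsets for GC share and length, the log2 differences of Il34 became -0.10 for SNA_Saline against Sham_Saline, 0.33 for DCA against LAM, 0.23 for Sham_Saline against LAM and -0.43 for the difference between the injuries. Every one of these was nearer 0 than without the offsets. The part of GC share in the differences of Il34 was not tested. N-acetyl-cysteine and peroxide gave differences of -0.11 and -0.43, neither of which passed the test.

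Since both ligands act on one receptor, their levels were set side by side per length. The ratio of Csf1 to Il34 in FPKM was above 1 in 6 of the 6 samples with a sciatic injury, from 1.03 to 1.64, and below 1 in all 12 others, from 0.199 to 0.624. Its mean was 1.32 ± 0.31 in SNA_Saline and 0.376 ± 0.094 in Sham_Saline (SD, n = 3 each). Lane 2 of the saline sham, with its high Il34, had the lowest ratio of that group, 0.274. The ratio of Csf1 to its receptor was 2.66 ± 0.48 in SNA_Saline, 2.84 ± 0.02 in SNA_NAC and 0.882 ± 0.110 in Sham_Saline (SD, n = 3 each). With 3 samples against 3, an exact permutation test of such a ratio cannot give a two-sided p below 0.1, so the ratios are given as a description.

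**Figure D3:**
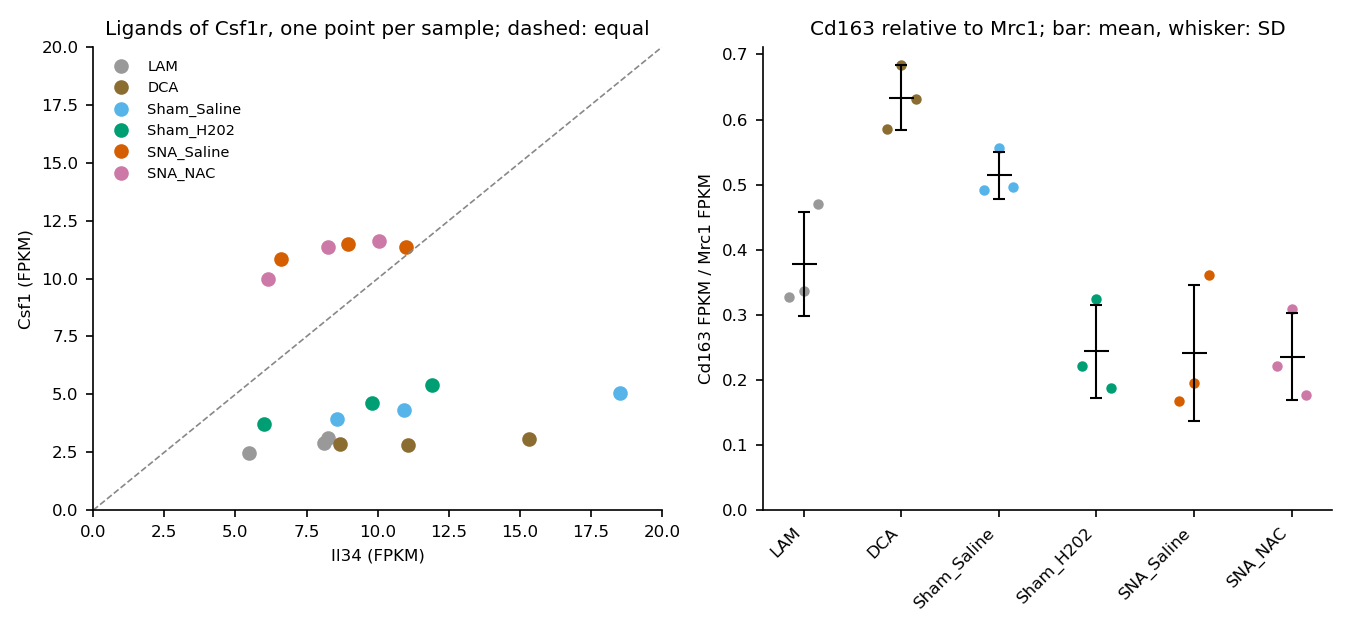
Left, FPKM of Csf1 (y axis) against FPKM of Il34 (x axis) in each of the 18 samples on linear axes, where the dashed line marks equal levels. Right, the ratio of Cd163 FPKM to Mrc1 FPKM by sample, with group means and SD (n = 3). The 6 samples with a sciatic injury lie above the dashed line and the 12 others below it.

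The receptor Csf1r itself stayed within a narrow range, from 16.2 to 29.7 CPM over all 18 samples. Its 3 SNA_Saline samples held 21.6, 17.5 and 25.4 CPM and its 3 Sham_Saline samples held 19.02, 29.7 and 25.9 CPM. The groups overlapped, and the log2 difference was -0.21 with a 95% interval from -0.58 to 0.17. With offsets for GC share and length the difference was 0.05, and without Sham_Saline replicate 2 it was -0.054. No comparison called Csf1r. The lowest group was Sham_H202, at 16.2, 21.2 and 16.7 CPM, with a log2 difference from Sham_Saline of -0.45 (unadjusted p = 0.0219, edgeR adjusted p = 0.449). In SNA_NAC against Sham_Saline the difference was -0.36, and it passed the test only without Sham_Saline replicate 1 (edgeR adjusted p = 0.0252). All neighbouring groups in the order of Csf1r means overlapped.

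Fractalkine was scarce in these libraries, with 1.86 to 4.72 CPM of Cx3cl1 over all samples. Its 3 SNA_Saline samples held 2.84, 3.57 and 3.56 CPM and its 3 Sham_Saline samples held 3.77, 4.72 and 4.41 CPM. All injured samples were below all sham samples, but the log2 difference of -0.38 (95% interval -0.91 to 0.16) did not pass the test (edgeR adjusted p = 0.357). With offsets for GC share and length it was -0.01. No comparison called Cx3cl1, and the log2 differences of the other 5 pairs of groups tested ran from -0.25 to 0.43.

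Cx3cr1, the fractalkine receptor, ran the other way without passing the test. It stood at 6.80, 6.70 and 4.42 CPM in SNA_Saline and at 5.05, 3.37 and 3.8003 CPM in Sham_Saline. The groups overlapped through the third injured sample, and the log2 difference was 0.55 (95% interval 0.08 to 1.02, edgeR adjusted p = 0.179). Without Sham_Saline replicate 1 it was 0.74 and passed (edgeR adjusted p = 0.0459). The peroxide sham gave a like value, 0.57, which did not pass either (edgeR adjusted p = 0.449). In DCA against LAM the difference was -0.11. The ratio of Cx3cl1 to Cx3cr1 in FPKM was above 1 in 2 of 12 samples without a sciatic injury, both of them Sham_Saline, and in 0 of 6 with one.

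Mrc1, the mannose receptor of resident and perivascular macrophages, was the other member with a call. It stood at 22.4, 26.4 and 19.1 CPM in SNA_Saline, at 20.1, 25.2 and 25.4 CPM in SNA_NAC and at 17.4, 11.8 and 13.2 CPM in Sham_Saline. All 6 samples with a sciatic injury were above all 3 saline shams. Against Sham_Saline, SNA_NAC was higher by 0.73 on the log2 scale (standard error 0.19), a 1.66-fold change that passed the test narrowly (edgeR adjusted p = 0.0470). SNA_Saline was higher by 0.67 (standard error 0.19), which did not pass (edgeR adjusted p = 0.0787). The 2 comparisons share their controls, and the direct difference of SNA_NAC from SNA_Saline was 0.06 (95% interval -0.34 to 0.46).

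The call of Mrc1 in SNA_NAC against Sham_Saline was lost in 12 of 18 alternative fits, whose adjusted p ran from 0.00565 to 0.242. With the replicate number, which is the sequencing lane, as a block its adjusted p was 0.0810. It was also lost without Sham_Saline replicate 2 (0.242) or 3 (0.123) and without SNA_NAC replicate 1 (0.0517), 2 (0.186) or 3 (0.174). Csf1 and Mrc1 made 2 of 9 members called in this comparison, beside 3.32% of all genes (2.47% higher and 0.846% lower). For SNA_Saline against Sham_Saline, Mrc1 passed with the DESeq2 Wald test (adjusted p = 0.0286), with offsets for GC share and length (0.0135, at a log2 difference of 0.51) and without Sham_Saline replicate 1 (0.0201), while without Sham_Saline replicate 2 its difference was 0.55 (0.315).

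After the dorsal column injury the values of Mrc1 were below those after laminectomy, without a call. The 3 DCA samples held 12.6, 15.4 and 12.3 CPM and the 3 LAM samples held 15.9, 19.8 and 18.3 CPM. The groups did not overlap, and the log2 difference of -0.43 did not pass the test (edgeR adjusted p = 0.624). The 2 injury responses of Mrc1 thus had opposite signs, and the test of their difference gave 1.10 (standard error 0.27, edgeR adjusted p = 0.0539). It passed in 6 of 24 alternative fits, among them those without Sham_Saline replicate 1 (0.0167) and without SNA_Saline replicate 3 (0.0396).

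Cd163, a haemoglobin scavenger receptor of resident macrophages, had its lowest values in the sham group with peroxide. The 3 Sham_H202 samples held 2.59, 2.90 and 2.86 CPM and the 3 Sham_Saline samples held 6.48, 4.97 and 4.95 CPM. The groups did not overlap. The log2 difference between Sham_H202 and Sham_Saline was -0.97 (standard error 0.28, 95% interval -1.56 to -0.38), which ranked 41 of all genes by p (0.00315) but did not pass the test (edgeR adjusted p = 0.449). Within lanes 1, 2 and 3 it was -1.29, -0.76 and -0.77, and without Sham_Saline replicate 2 it was -1.04. Beside it, the summed level of 7 red blood cell markers was 254 to 289 CPM in Sham_H202 and 261 to 853 CPM in Sham_Saline. Of 13 lymphocyte markers 6 were in the table, and they summed to 7.11 to 9.85 CPM in Sham_H202 and 11.2 to 13.3 CPM in Sham_Saline, without overlap. In this sum LAM (7.53 to 10.5 CPM), DCA (7.51 to 11.6 CPM), SNA_Saline (5.51 to 11.6 CPM) and SNA_NAC (6.07 to 7.26 CPM) all overlapped Sham_H202. Among neutrophil markers 12 of 12 had a negative difference between Sham_H202 and Sham_Saline (median -0.57). The part of these marker lists in the difference of Cd163 was not tested. After the sciatic injury Cd163 differed by -0.46 (edgeR adjusted p = 0.292) and after the dorsal column injury by 0.29 (edgeR adjusted p = 0.648), with overlapping groups in both.

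Relative to Mrc1, Cd163 was lowest in 3 groups that differ in surgery and agent. The ratio of Cd163 to Mrc1 in FPKM was 0.241 ± 0.104 in SNA_Saline, 0.236 ± 0.067 in SNA_NAC and 0.244 ± 0.072 in Sham_H202 (SD, n = 3 each). It was 0.514 ± 0.036 in Sham_Saline, 0.378 ± 0.080 in LAM and 0.634 ± 0.050 in DCA (SD, n = 3 each). All 9 samples of the first 3 groups lay below all 3 Sham_Saline samples. The 3 LAM samples (0.327, 0.337 and 0.470) also lay below all Sham_Saline samples, and they overlapped SNA_Saline, whose replicate 3 was at 0.361. Both genes enter this ratio: against Sham_Saline, the log2 differences of Mrc1 and Cd163 were 0.67 and -0.46 in SNA_Saline, 0.73 and -0.40 in SNA_NAC, and 0.14 and -0.97 in Sham_H202.

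Aif1 and Cd68, which mark macrophages and microglia in general, were low and did not pass the test anywhere. Aif1, which encodes the actin-binding protein Iba1, ran from 1.76 to 4.77 CPM. Its largest log2 difference among the pairs of groups tested was 0.51, for SNA_Saline against Sham_Saline (edgeR adjusted p = 0.291). Cd68, a lysosomal glycoprotein, ran from 1.42 to 3.54 CPM. Among the pairs tested, its largest difference was -0.35, for Sham_H202 against Sham_Saline (edgeR adjusted p = 0.567). The means of Cd68 ran from 2.15 CPM in Sham_H202 to 2.89 CPM in LAM, a pair that was not tested. For the sciatic injury Cd68 differed by -0.15, with a 95% interval from -0.77 to 0.47. Every neighbouring pair of groups in the order of means overlapped for both genes.

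Counted over the 9 members, 3 had groups that did not overlap between SNA_Saline and Sham_Saline (Csf1 and Mrc1 higher, Cx3cl1 lower), where 19.1% of all genes did. In SNA_NAC against Sham_Saline there were 2 (Csf1 and Mrc1), where 21.2% of all genes did. In DCA against LAM there were 2 (Il34 higher, Mrc1 lower), beside 21.7% of all genes, and 0 of 9 were called by edgeR or DESeq2. At an unadjusted p under 0.05 those same 2 members passed, and over all genes edgeR called 0 (0%), DESeq2 called 2 and 793 (5.04%) passed unadjusted.

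In SNA_NAC against SNA_Saline, 0 of 9 members were called, 0 passed an unadjusted p under 0.05 in edgeR and 0 had groups that did not overlap, where 14.9% of all genes did. Over all genes edgeR and DESeq2 both called 0 (0%), and 314 (2%) passed unadjusted in edgeR. In Sham_H202 against Sham_Saline, 0 of 9 members were called by either tool and 3 passed unadjusted in edgeR (Csf1r, Cx3cr1 and Cd163). Over all genes edgeR called 0 (0%), DESeq2 called 4, and 1440 (9.15%) passed unadjusted, while groups did not overlap for 1 member (Cd163) and for 5.43% of all genes. In Sham_Saline against LAM edgeR called 0 of 9 members and 0.0699% of all genes, DESeq2 called 1 member (Csf1), and 2 members passed unadjusted in edgeR (Csf1 and Il34), as did 30.3% of all genes. Groups did not overlap for the same 2, and for 30.6% of all genes.

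The other genes of the Csf1r pathway were not called with Csf1. Of 20 genes of the Csf1r axis and myeloid regulation, which include the myeloid transcription factors Spi1 and Irf8, the adaptor Tyrobp and the receptor Trem2, Csf1 alone was called in SNA_Saline against Sham_Saline. The median log2 fold change of the 20 was -0.22, beside -0.03 over all genes. Spi1 differed by -0.51 and Trem2 by -0.32, neither of them past the test. Among the 20 genes 8 had a positive and 12 a negative difference. Of 9 genes of the fractalkine axis 0 were called by edgeR or DESeq2, with a median of 0.13. In edgeR 2 of them passed an unadjusted p under 0.05 (Cx3cr1 and Itgav). Such values were common in this comparison, where Cx3cr1 ranked 2219 of all genes by p (edgeR unadjusted p = 0.0252). The share of all genes that passed unadjusted is not given here, so the 2 genes do not set the fractalkine list apart. The sheddase genes Adam10 and Adam17 differed by 0.36 and 0.13, and Itgav, an integrin subunit, had the smallest unadjusted p of that list (0.00918, edgeR adjusted p = 0.125, log2 difference 0.55).

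Of the 22 pan-macrophage genes 21 were in the table, and Msr1, a scavenger receptor, was the 1 called by edgeR in SNA_Saline against Sham_Saline, where DESeq2 called 2 (Fcgr2b and Msr1). Msr1 stood at 3.52 ± 1.40 CPM in SNA_Saline and 1.63 ± 0.12 CPM in Sham_Saline (SD, n = 3 each), which gave a log2 difference of 1.09 (edgeR adjusted p = 0.0427). The laminectomy control stood at 3.39 ± 0.14 CPM, close to the injured mean. The call of Msr1 was lost in 9 of 16 alternative fits, among them the fit with only the groups compared (adjusted p = 0.308), the fit with the replicate block (0.0694) and those without Sham_Saline replicate 2 (0.157) or 3 (0.0849) and without SNA_Saline replicate 1 (0.243) or 2 (0.225). Of the 21 genes 15 had a positive difference, with a median of 0.17.

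Fcgr2b, the inhibitory Fc receptor, was called higher in SNA_NAC against Sham_Saline, by 0.83 (edgeR adjusted p = 0.0150), and lay at 0.67 in SNA_Saline (edgeR adjusted p = 0.0549). With the DESeq2 Wald test Fcgr2b was called in SNA_Saline against Sham_Saline too. The edgeR call in SNA_NAC was lost in 4 alternative fits, with only the groups compared (0.171), without Sham_Saline replicate 2 (0.0955) and without SNA_NAC replicate 2 (0.0687) or 3 (0.0888). The difference between the 2 injury responses was called for Fcgr2b (1.11, edgeR adjusted p = 0.0386) and for Msr1 (1.75, edgeR adjusted p = 0.0322), and each of these calls was lost in 12 alternative fits, the replicate block (0.0629 and 0.0544) among them. For Fcgr2b the calls ended without Sham_Saline replicate 2, without SNA_Saline replicate 1 or 2, without any of the 3 LAM samples, and without DCA replicate 2 or 3, with adjusted p up to 0.129. For Msr1 they ended without Sham_Saline replicate 2 or 3, SNA_Saline replicate 1 or 2, any of the 3 LAM samples, or DCA replicate 1 or 3, with adjusted p up to 0.117.

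In the other lists, 0 of 13 genes of resident and perivascular macrophages and 0 of 11 microglial genes were called by edgeR in SNA_Saline against Sham_Saline, with medians of 0.06 and -0.08. In each of these lists 2 genes passed an unadjusted p under 0.05 in edgeR, and DESeq2 called 1 (Mrc1) and 0. Such unadjusted values were common over all genes in that comparison, as given above for Cx3cr1. In SNA_NAC against Sham_Saline, Mrc1 was the 1 resident gene called. After the dorsal column injury edgeR and DESeq2 called 0 genes in each of the 5 lists. At an unadjusted p under 0.05 edgeR passed 5 pan-macrophage genes, 2 of the Csf1r axis, 1 of the fractalkine axis, 1 resident gene and 0 microglial genes, beside 5.04% of all genes. There 17 of the 21 pan-macrophage genes had a negative difference, with a median of -0.31 beside -0.0038 over all genes. Between the surgical controls, 16 of the 21 were lower in Sham_Saline than in LAM, with a median of -0.40 beside 0.02 over all genes. EdgeR called 0 of them, and 7 of the 21 passed unadjusted in edgeR, where 30.3% of all genes did. DESeq2, whose count over all genes is given further below, called 4 (Ctss, Fcgr1, Fcgr2b and Msr1). In the same comparison the differences were positive for 12 of 12 skeletal muscle markers (median 1.27) and 7 of 7 red blood cell markers (median 0.73), and negative for 8 of 10 monocyte markers (median -0.23). EdgeR called 0 of these markers, at an unadjusted p under 0.05 it passed 1, 3 and 4 of them, and DESeq2 called 0, 0 and 2 (Ccr2 and Ms4a4c). The muscle sum was high in 1 sham sample, replicate 2, at 1884 CPM. Sham_Saline replicates 1 and 3 (242 and 142 CPM) did not exceed the LAM range of 186 to 581 CPM. The part of these markers in the lower macrophage values was not tested.

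**Figure D4:**
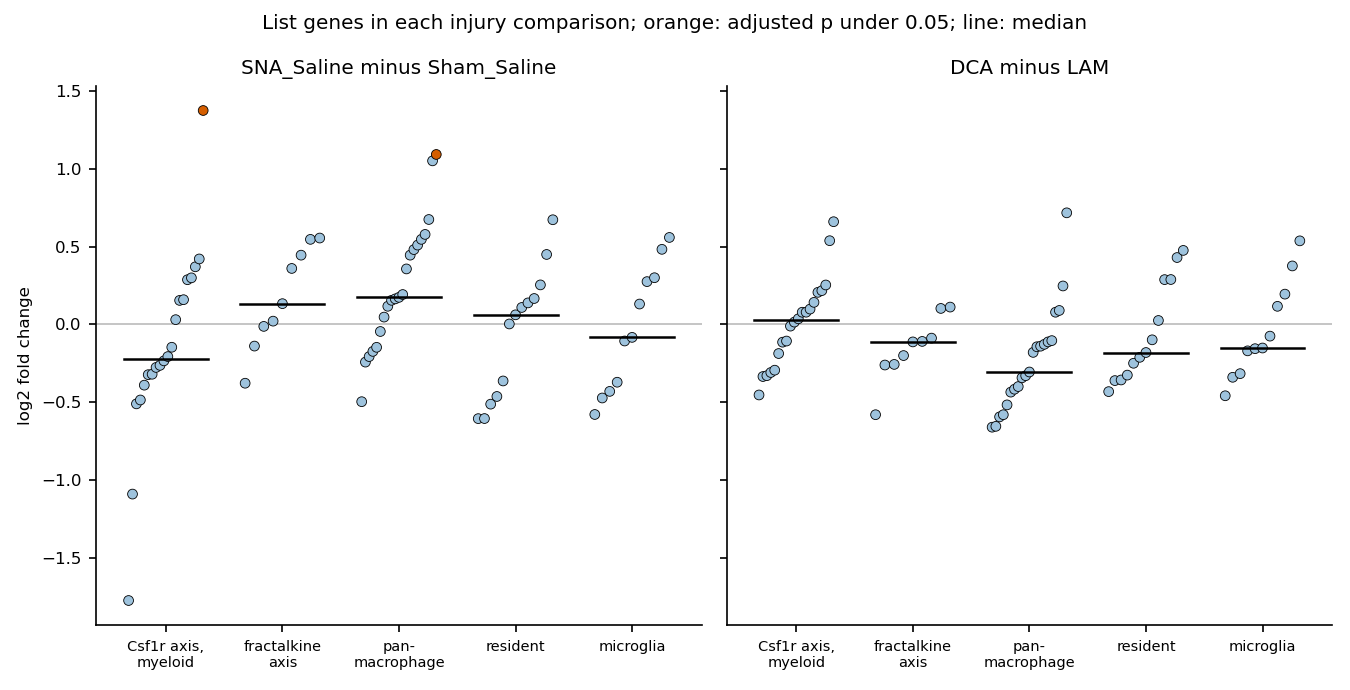
Log2 fold change of every gene of the 5 lists (y axis) in the injury comparisons named above the panels; each point is a gene, orange points passed an adjusted p of 0.05 over all genes and short lines are list medians. After the sciatic injury the called genes are Csf1 (1.37) and Msr1 (1.09), and after the dorsal column injury no listed gene was called.

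The summed level of the 21 pan-macrophage genes ran from 254 to 291 CPM in SNA_Saline, from 244 to 293 CPM in Sham_Saline, from 274 to 373 CPM in LAM and from 239 to 318 CPM in DCA. The SNA_Saline and Sham_Saline samples overlapped in this sum. The 10 monocyte markers summed to 95.5 to 121 CPM in SNA_Saline and 98.8 to 121 CPM in Sham_Saline, which also overlapped. In SNA_NAC the 12 neutrophil markers summed to 235 to 314 CPM, below all SNA_Saline samples (351 to 569 CPM) and all Sham_Saline samples (357 to 591 CPM). For the same markers, Sham_H202 replicates 1 and 2 (242 and 279 CPM) and DCA replicate 2 (287 CPM) lay inside the SNA_NAC range. Of these 12 markers edgeR called 3 lower in SNA_NAC against Sham_Saline, where 0.846% of all genes were called lower. They were Elane by -2.03 (edgeR adjusted p = 0.0100), Camp by -1.51 (0.0213) and Mpo by -1.51 (0.0314). Hp of the monocyte list was also called lower, by -1.58 (0.0408). DESeq2 called 4 of the 12 neutrophil markers, Camp, Mmp9, Mpo and Ngp, and did not call Elane. The edgeR calls were lost in several alternative fits. With only the groups compared all 4 were lost (Elane 0.110, Camp 0.0707, Mpo 0.102 and Hp 0.107), and Hp was also lost in the 3 limma settings (0.0718 to 0.0821). Leaving out samples, calls were lost for all 4 without Sham_Saline replicate 2, Camp and Hp also without Sham_Saline replicate 3 or SNA_NAC replicate 1, Camp, Hp and Mpo without SNA_NAC replicate 2, and for all 4 without SNA_NAC replicate 3, with adjusted p from 0.0555 to 0.253. Their part in the differences of Mrc1 and Fcgr2b in the same comparison was not tested.

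**Figure D5:**
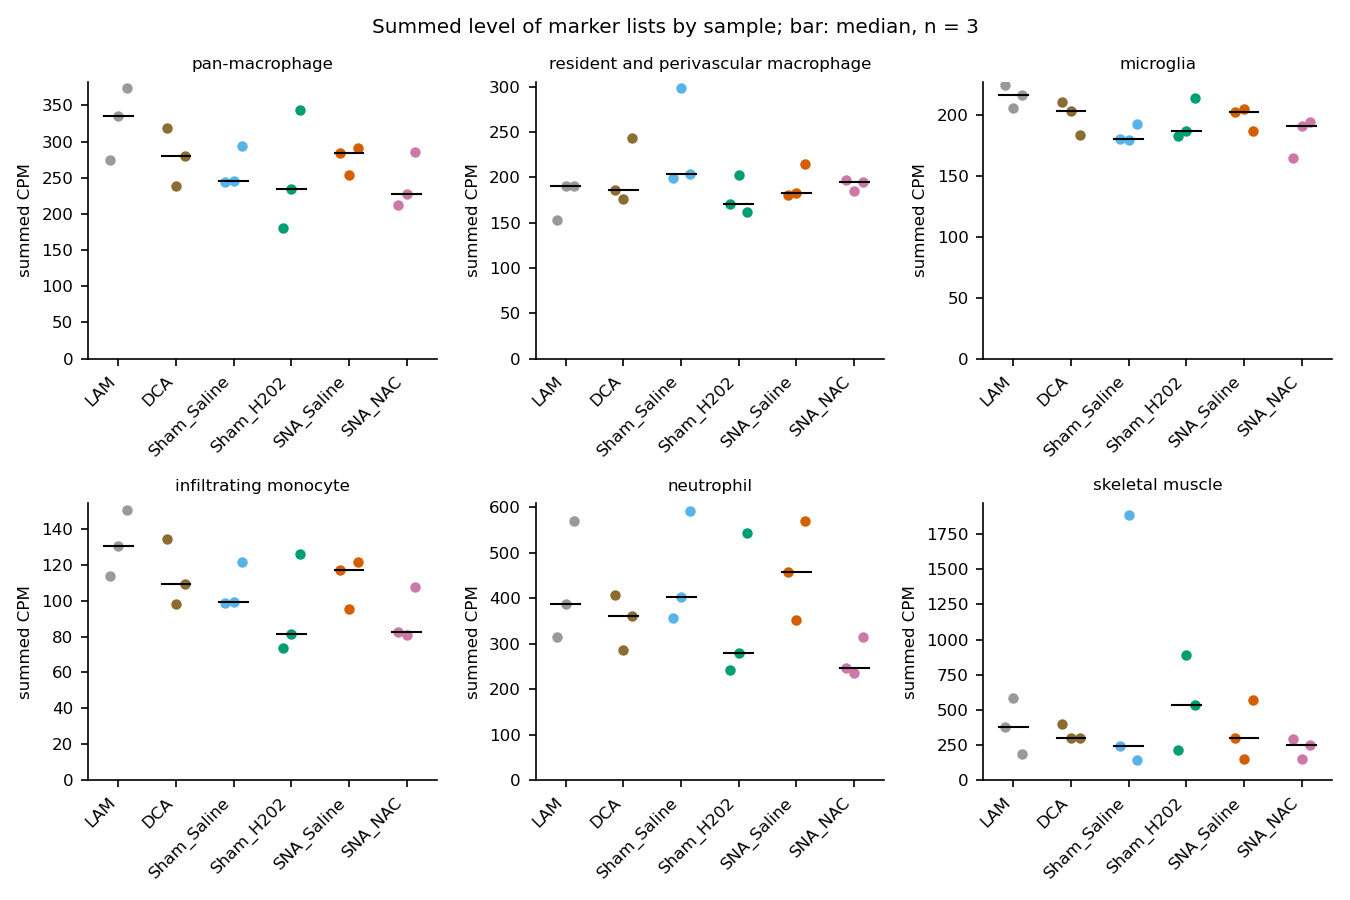
Summed level of marker lists in CPM by sample (y axis, linear from 0) for the 6 groups; points are samples and bars are group medians (n = 3). The pan-macrophage sum overlaps between SNA_Saline (254 to 291 CPM) and Sham_Saline (244 to 293 CPM). The neutrophil sum of SNA_NAC lies below SNA_Saline and Sham_Saline but overlaps Sham_H202 and DCA, and the skeletal muscle sum reaches 1884 CPM in Sham_Saline replicate 2.

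The genes most like each member were found by Pearson's r of log2 CPM over the 18 samples, as a description in which all samples share the 3 lanes and the differences in GC slope. For Csf1 they were Igfbp3 (r 0.99, Spearman's rho 0.93), Procr (r 0.99, rho 0.89) and Smim3 (r 0.98, rho 0.93). Csf1 values form 3 separate steps, so r was also taken within each. Over the 6 samples with a sciatic injury r was -0.66 for Igfbp3, 0.34 for Procr and 0.50 for Smim3. Over the 6 sham samples it was 0.90, 0.78 and 0.82 for the same genes in that order, and over the 6 LAM and DCA samples 0.90, 0.46 and 0.38. None of these 3 genes belongs to the macrophage lists.

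For Il34 the most like genes were Aamp (r 0.98), Dctn2 (r 0.98) and Wbp2 (r 0.98), and for Csf1r they were Fbll1 (r 0.91), Csrp2 (r 0.90) and Prodh (r 0.90). None of these 6 genes is in the macrophage lists. Among the members, Il34 and Csf1r went together (r 0.76, rho 0.66), and Il34 and Mrc1 went opposite ways (r -0.68, rho -0.69). The GC shares of their longest transcripts are 56.96% for Il34, 54.46% for Csf1r and 43.41% for Mrc1. The part of GC share in these correlations was not tested. Cx3cl1 and Cx3cr1 were unrelated over the samples (r -0.08, rho -0.11). The gene most like Cx3cr1 was Fzd6 (r 0.83), followed by Ms4a7 (r 0.81), a macrophage gene, and Hpgds (r 0.80). Mrc1 was most like Arhgap42 (r 0.95), Dab2 (r 0.95) and Cyp1b1 (r 0.94), and Cd163 most like Hif3a (r 0.92), Mertk (r 0.91), and Fam107a (r 0.84). Cx3cl1 was most like Gli1 (r 0.89), Nradd (r 0.86) and Alpl (r 0.84). The scarce markers had weaker likeness, led by Xlr3b (r 0.76), Cep19 (r 0.75) and Dnali1 (r 0.74) for Aif1 and by Fkbp11 (r 0.78), Gadd45b (r 0.78) and Zfp775 (r 0.76) for Cd68.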

How the data were processed

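Poly-A selected RNA libraries of pooled ganglia came from a stranded mRNA kit and were read single-end with 6 of them on each lane, per the labels' protocols. The authors deposited counts per gene for 15730 genes and FPKM for 45904 features. The submitters' processing notes name TopHat2 2.0.12, Bowtie2 2.2.3, SAMtools 0.1.19, HTSeq 0.6.0, edgeR 3.8.6, limma 3.22.7 and the build mm10, without their roles; the use of strand is not given in the sources used here. Every gene in the deposited counts has a mean of at least 10.06, so the table lacks the low end. The deposited FPKM of the members equal counts times a factor per gene and per sample. Columns named SNA and Sham were taken as the saline groups, since the other treatments have columns of their own.

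The main test was edgeR 4.0.16 under R 4.3.3, with TMM factors, filterByExpr (all 15730 genes stayed) and the quasi-likelihood functions glmQLFit and glmQLFTest on the 18 samples together. A call means a Benjamini-Hochberg adjusted p under 0.05 over all genes. A standard error is the size of the log2 difference over the root of its F value. The common biological coefficient of variation was 17.4%. The method was tested on simulated data. The members, lists and tests were chosen with earlier results of these data known, and lists are described by counts and medians alone. Genes were named by a fixed rule: the members, up to 8 called genes of each list per comparison (3 for markers of other cell types, by summed level and called genes), and the 3 genes most correlated with each member. Spi1, Trem2, Adam10, Adam17 and Itgav, and the DESeq2 calls named in lists, were added as examples after their values were seen.

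Alternatives were DESeq2 1.42.0, RLE and upper-quartile factors, no filter, at least 10 counts in every sample, only the groups of a comparison, an adjusted p under 0.1, limma 3.58.1 on log2(FPKM + 1) and log2(FPKM + 0.1), a mean FPKM of at least 1, offsets for GC share and length (natural splines with 5 degrees of freedom, 15648 genes with a GENCODE M21 transcript), the replicate block, and leaving out each sample. The replicate numbers in the labels equal the lane, so the lane pairs the samples while the animals differ. The mean correlation of same-numbered deviations across genes was -0.241 for SNA_Saline with Sham_Saline, 0.0673 for DCA with LAM, 0.0886 for SNA_NAC with SNA_Saline, -0.362 for SNA_NAC with Sham_Saline, 0.299 for Sham_H202 with Sham_Saline and 0.311 for Sham_Saline with LAM. All replicate pairs differed by more than counting noise (lowest chi-square per degree of freedom 3.96). The labels say nothing more of how the pools were made, so p-values measure the spread between these pools. Reads carry no molecular identifiers, so counting error is the least error of a value. Figures were drawn with matplotlib 3.10.9.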

Additional observations from a re-analysis of the deposited data

Results flagged for a closer look

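The response of Csf1 to the sciatic injury (SNA_Saline against Sham_Saline) was larger than its response to the dorsal column injury (DCA against LAM) by 1.36 on the log2 scale, by a test of the difference itself in the same fit (standard error 0.18, 95% interval 0.98 to 1.74, edgeR adjusted p = 0.00101). Its 3 SNA_Saline samples were all above its 3 Sham_Saline samples, and its DCA and LAM samples overlapped. Of the 2 surgical controls, Sham_Saline was itself higher in Csf1 than LAM by 0.62, and this gap is subtracted in the difference. With the replicate block the difference between the responses was 1.36 (edgeR adjusted p = 0.00246).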

How the results depend on the processing

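The call of Csf1 held in all 18 alternatives for SNA_Saline and for SNA_NAC against Sham_Saline and in all 24 for the difference between the injuries, and the call of Mrc1 did not, as given above. Over the single genes, 1171 values kept direction with no change of call recorded, 71 lost a call, 18 gained one and 69 changed sign. Values that kept direction in a fit without an adjusted p were counted among the 1171. The cause of these changes was not tested. The FPKM filter removed Cx3cl1, which has no value there.

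Genes called in SNA_Saline against Sham_Saline (430) became 822 at an adjusted p under 0.1, 863 with DESeq2, 65 with only the groups compared, 1167 with GC and length offsets, 1014 with these offsets and the replicate block, and 174 to 2548 leaving out 1 sample. For SNA_NAC against Sham_Saline (522) the same settings gave 1288, 1223, 68, 1220, 1128 and 215 to 5861. For the difference between the injuries (254) they gave 2398, 1723, 151, 797, 636 and 55 to 4600, and the replicate block alone gave 118. For Sham_Saline against LAM (11) there were 1141 with DESeq2, 7 with upper-quartile factors, 4 with at least 10 counts in every sample, 1 with only the groups compared, 6 with the replicate block, 5 with limma on log2(FPKM + 1), 7 with a mean FPKM of at least 1, 26 with the offsets, 23 with offsets and block, and 4 to 5009 leaving out 1 sample. The highest count in each of these ranges came without Sham_Saline replicate 1. For DCA against LAM (0), DESeq2 gave 2 and offsets with block 1, and for Sham_H202 against Sham_Saline (0), DESeq2 gave 4.

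Members called in SNA_Saline against Sham_Saline (1) became 2 at an adjusted p under 0.1, with DESeq2, with the offsets and with offsets and block, and 1 to 3 leaving out 1 sample. In SNA_NAC against Sham_Saline (2) there was 1 with RLE or upper-quartile factors, only the groups compared, the replicate block or any limma setting, and 1 to 4 leaving out 1 sample. In Sham_Saline against LAM (0) there was 1 with DESeq2 and 0 to 2 leaving out 1 sample. In the difference between the injuries (1) there were 2 at an adjusted p under 0.1, with DESeq2, upper-quartile factors, the offsets, and offsets and block, and 1 to 4 leaving out 1 sample. Apart from Mrc1 in SNA_NAC against Sham_Saline, the replicate block changed no member's call.

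Signs changed as follows, in log2 differences with the offsets and then with offsets and block, and as the range leaving out 1 sample. In SNA_Saline against Sham_Saline, Csf1r was 0.051 and 0.058, and Cd68 ran from -0.39 to 0.081. In DCA against LAM, Csf1 was -0.17 and -0.17, -0.00071 with DESeq2 and from -0.076 to 0.077. There Csf1r was -0.11 and -0.10 and from -0.036 to 0.16, Cx3cl1 was -0.20 and -0.18 and from -0.12 to 0.43, and Cd68 ran from -0.29 to 0.11. In SNA_NAC against SNA_Saline, Cd163 was -0.022 and -0.014 and from -0.23 to 0.32, Il34 was 0.0043 and 0.0034 and from -0.28 to 0.057, and Mrc1 was -0.051 and -0.053 and from -0.049 to 0.18. There Cd68 was -0.0043 with upper-quartile factors and from -0.11 to 0.21, and Csf1 ran from -0.061 to 0.031. In SNA_NAC against Sham_Saline, Cd68 was 0.13 and 0.12 and from -0.37 to 0.10, and Cx3cl1 was 0.16 and 0.15. In Sham_H202 against Sham_Saline, Cx3cl1 was 0.10 and 0.12, Mrc1 was -0.0043 and -0.0087 and from -0.066 to 0.33, and Csf1 ran from -0.042 to 0.19. In Sham_Saline against LAM, Csf1r was -0.14 and -0.14, Cx3cl1 was -0.068 and -0.031, Cd163 ran from -0.10 to 0.27 and Cd68 from -0.26 to 0.20. In the difference between the injuries, Csf1r was 0.16 and 0.16, Cx3cl1 was 0.19 and 0.16, and Cd68 was 0.29 and 0.28, 0.0037 with upper-quartile factors, 0.028 with limma on log2(FPKM + 1) with or without the FPKM filter, 0.076 on log2(FPKM + 0.1) and from -0.27 to 0.20.

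In SNA_Saline against Sham_Saline the standard errors of the members ran from 0.127 for Csf1 to 0.299 for Il34. For a member without a call, these samples do not exclude a difference anywhere inside its interval.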
